A study of Mus musculus with 3 samples.

Results

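Integrins and their ligands were described at the level of messenger RNA in B cell lymphomas of the spleen. The gene set comprised 10 of the 37646 genes listed in the count files: the integrin subunit genes Itgal, Itgb2, Itga4, Itgb1, Itgb7 and Itgb3, the integrin ligand genes Icam1 and Madcam1, the adhesion receptor gene Pecam1 and the basement membrane gene Nid1. Members were taken by their gene symbol, and each symbol matched 1 row. Of the 10 genes, 4 (Nid1, Madcam1, Pecam1 and Itgb3) had been chosen by their measured level or spread, in counts scaled to the library total, in these same tumours, so their values are a description and carry no test. The other 6 were included for what their proteins do.

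The material was 3 tumours of the pBIC mouse, all in 1 group and on the C57BL/6 strain, with 1 library each. Every mouse carried floxed alleles of p53 (p53F/F) and of Blimp1 (Blimp1F/F), the IKK2castopF/stopF allele, which encodes an active form of the kinase IKK2 behind a floxed stop, and Cre recombinase at the C gamma 1 locus (Cg1Cre/+), which is transcribed in activated B cells. The labels class the model as ABC-DLBCL, the activated B cell form of diffuse large B cell lymphoma. Cells that were B220+GFP+ were sorted from spleens of moribund mice, and ages are not given. The design's normal germinal centre B cells were not analysed here. No level below can therefore be called higher than, lower than or equal to that of a normal B cell. Tumours are numbered in accession order.

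Integrins are receptors made of an alpha and a beta chain that hold cells to other cells and to the extracellular matrix. Lymphocytes use LFA-1, the pair of Itgal and Itgb2 products, to bind ICAM1, and they use the Itga4 product with the Itgb1 product (VLA-4) to bind VCAM1 and fibronectin, or with the Itgb7 product to bind MADCAM1 on the vessels of the gut and on cells lining the marginal sinus of the spleen. The receptors are switched to high affinity from inside the cell by talin and kindlin, which bind the beta chain tail downstream of the GTPase RAP1. ICAM1 and MADCAM1 are known to be induced by NF-κB, the transcription factor that IKK2 activates, and PECAM1, MADCAM1, NID1 and the Itgb3 product are better known from endothelium, from basement membranes and from platelets than from B cells.

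The promoters of Icam1 and Madcam1 are printed because these are the ligand genes among the members and the model carries active IKK2. Promoter windows of 300 bases, with 250 bases before the annotated start and 50 after it, came from RefSeq on build GRCm38.p6, and 6 of the 10 members matched (Itgal, Itgb2, Pecam1 and Itgb3 did not). The letters GGAAANNCC, a short form of the NF-κB motif chosen after these sequences had been read, were searched on both strands, and matches are in capitals. The Icam1 window is chr9:21015690-21015989 on the plus strand, and the Madcam1 window is chr10:79664309-79664608 on the plus strand.
Icam1: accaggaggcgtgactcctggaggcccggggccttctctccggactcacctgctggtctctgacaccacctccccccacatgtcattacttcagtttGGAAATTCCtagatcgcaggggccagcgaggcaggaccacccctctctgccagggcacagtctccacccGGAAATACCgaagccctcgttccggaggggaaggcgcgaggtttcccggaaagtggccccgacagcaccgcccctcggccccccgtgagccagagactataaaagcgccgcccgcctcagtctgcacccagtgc
Madcam1: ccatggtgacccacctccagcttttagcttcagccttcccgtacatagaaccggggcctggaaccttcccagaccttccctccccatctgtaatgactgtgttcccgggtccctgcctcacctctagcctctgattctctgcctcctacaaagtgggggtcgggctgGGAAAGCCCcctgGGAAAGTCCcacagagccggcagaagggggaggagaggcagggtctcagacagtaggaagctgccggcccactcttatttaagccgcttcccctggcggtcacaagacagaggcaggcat
In Icam1 the matches GGAAATTCC and GGAAATACC began 153 and 84 bases before the start, and in Madcam1 the matches GGAAAGCCC and GGAAAGTCC began 83 and 70 bases before it. Itgb1 held 1 match on the reverse strand, and Itga4, Itgb7 and Nid1 held none in these windows. Among all 32851 promoter windows in the table, 5.82% held at least 1 match and 0.253% held 2 or more. Because the form was chosen after the member sequences were read, these shares do not measure enrichment in the members. A match is a run of letters and was not tested as a binding site.

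The libraries held 15022902 to 15141009 counts, and no pair of tumours agreed within sampling noise (chi-square per degree of freedom from 41.9 to 45.7). With 1 library per tumour, technical and biological spread cannot be told apart, so the spread between tumours may be in part technical. The labels also do not state whether the tumours came from unrelated animals. Whole-gene counts of the engineered genes were 24.4, 20.0 and 62.4 CPM for Trp53, 6.54, 19.2 and 9.49 CPM for Prdm1 and 446, 271 and 398 CPM for Ikbkb in tumours 1, 2 and 3, and they check neither the deletions nor the active allele. CPM is the read count scaled to a common library total and is not corrected for gene length. All 10 B cell marker genes reached 1 CPM in every tumour, with summed levels of 5623, 3350 and 3306 CPM in tumours 1, 2 and 3. In sorted but bulk RNA, fewer cells of a type and less RNA per cell cannot be told apart.

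All 6 members that were not chosen for level or spread had at least 10 CPM in every tumour and passed the filter on low counts. Of the 37646 listed genes, 11478 passed this filter, and the share that reached 10 CPM in every tumour is not given here. Nid1, Madcam1, Pecam1 and Itgb3 also met both conditions, so all 10 members were transcribed. For these chosen genes, the choice by level or spread may have favoured that result. Between the highest and the lowest tumour, the 6 members that were not chosen for level or spread differed by a median of 1.71-fold, and 2 of them (Itgal and Itga4) differed by more than 2-fold. The background was close to this, with a median of 1.63-fold over the 11478 genes tested and 29.2% of them above 2-fold. In an edgeR test of whether a gene varied between tumours more than genes of similar abundance, 0 of these 6 had an adjusted p below 0.05, against 0.139% of all tested genes. That share is 16 genes, and 0 were called without tumour 1 or without tumour 2. At an unadjusted p below 0.05 there were 2 of 6, again Itgal and Itga4, against 6.27% of all tested genes.

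**Figure D1:**
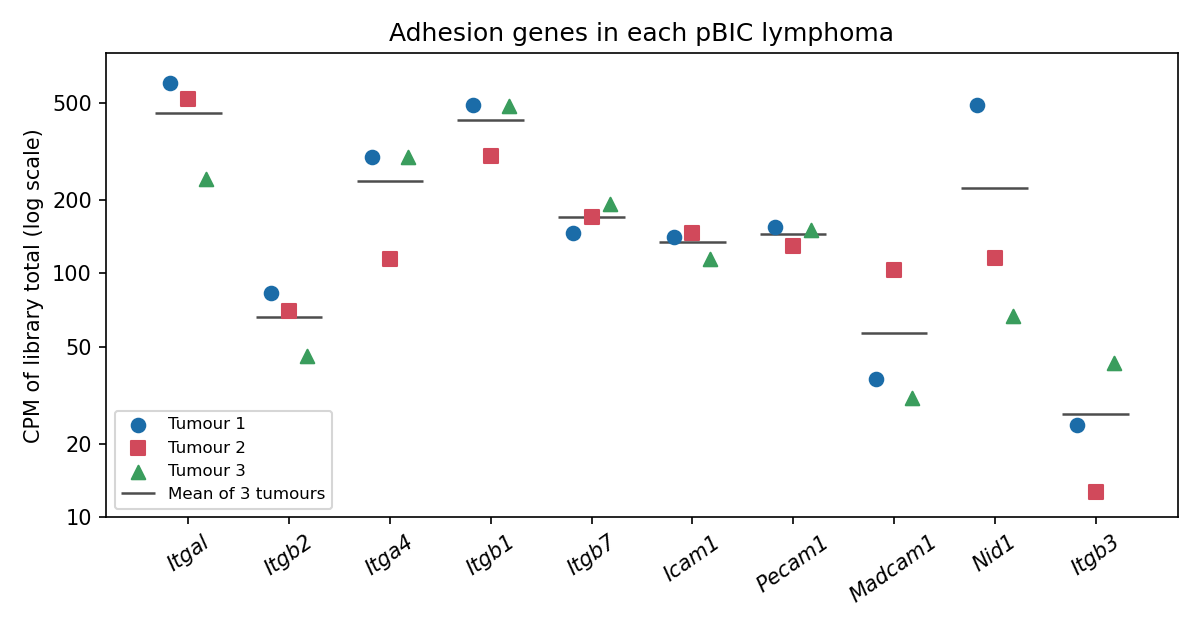
CPM of each member in each of the 3 tumours on a log axis, with a line at the mean. Itgal and Itgb2 are lowest in tumour 3, Itga4 and Itgb1 are lowest in tumour 2, and Nid1 in tumour 1 (488 CPM) stands far above tumours 2 and 3.

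Itgal encodes the alpha chain of LFA-1 (ENSMUSG00000030830.18, GRCm38 chromosome 7, 127296260 to 127335138). It had 603, 520 and 244 CPM in tumours 1, 2 and 3, a mean of 456 ± 188 CPM (SD, n = 3). Tumours 1 and 2 lay close together and tumour 3 was lowest, a 2.47-fold range that did not pass the edgeR test (adjusted p = 0.772). Itgb2 encodes CD18, the beta chain of LFA-1 (ENSMUSG00000000290.13, chromosome 10, 77530252 to 77565708). It had 82.8, 70.4 and 45.8 CPM, a mean of 66.4 ± 18.8 CPM, in the same order of tumours and with a 1.81-fold range (edgeR adjusted p = 0.997). So both chains of LFA-1 were highest in tumour 1 and lowest in tumour 3.

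After division by the length of all annotated exons, Itgal exceeded Itgb2 in every tumour. The ratio of Itgal to Itgb2 in TPM, the same scaling after division by length, was 3.38, 3.43 and 2.47 in tumours 1, 2 and 3, and it moved by 1.39-fold, less than either gene alone. The difference was 1.6 ± 0.27 in log2(TPM + 1) (SD, n = 3), 3.03-fold, in 3 of 3 tumours, and 6.5-fold in CPM, without division by length. The two-sided exact sign-flip p was 0.25, the smallest that 3 tumours allow, and stayed 0.25 after adjustment over the 4 differences computed. The other alpha chains that pair with the Itgb2 product were scarce: Itgam (CD11b) had 3.63, 1.93 and 1.33 CPM, Itgax (CD11c) 2.77, 4.33 and 0.464 CPM, and Itgad 0.859, 0.466 and 0.0663 CPM in tumours 1, 2 and 3.

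Itga4 encodes the alpha chain shared by VLA-4 and the receptor for MADCAM1 (ENSMUSG00000027009.18, chromosome 2, 79255426 to 79333123). It had 300, 114 and 300 CPM in tumours 1, 2 and 3, a mean of 238 ± 107 CPM. Tumours 1 and 3 were level and tumour 2 was lower, a 2.63-fold range (edgeR adjusted p = 0.746). Itgb1 encodes the beta chain of VLA-4 and of most receptors for matrix proteins (ENSMUSG00000025809.15, chromosome 8, 128685654 to 128733200). It had 491, 303 and 486 CPM, a mean of 427 ± 107 CPM, and was also lowest in tumour 2 with tumours 1 and 3 level (1.62-fold, edgeR adjusted p = 0.997). Exons of Itga4 overlap 1124 nt of the opposite-strand gene Cerkl, which had 0.531 to 1.93 CPM, and the use of strand in counting is not given.

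Itgb7 encodes the other beta chain that pairs with the Itga4 product (ENSMUSG00000001281.10, chromosome 15, 102215995 to 102231944, minus strand). It had 146, 170 and 192 CPM, a mean of 170 ± 23.0 CPM, without the low value of tumour 2 seen for Itga4 and Itgb1 (1.31-fold, edgeR adjusted p = 0.997). The ratio of Itgb1 to Itgb7 in TPM was 2.28, 1.21 and 1.72 in tumours 1, 2 and 3, so the beta chains were nearest to equal in tumour 2. Their difference was 0.74 ± 0.46 in log2(TPM + 1), 1.67-fold, with Itgb1 higher in 3 of 3 tumours (exact sign-flip p = 0.25, adjusted 0.25). Itga4 lay below Itgb1 by 6.44-fold, a difference of -2.69 ± 0.39 in log2(TPM + 1), and Itgb2 lay below Itgb1 by 4.77-fold, -2.26 ± 0.65, each in 3 of 3 tumours with the same exact p. The gap between Itga4 and Itgb1 rests on the union exon length of 13978 nt for Itga4: it was 4.83-fold with the longest transcript of each gene and 1.91-fold without division by length.

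The ratio between the alpha chain genes of LFA-1 and VLA-4 was described but not tested. It pairs the 2 members, among those not chosen for level or spread, that ranged more than 2-fold. A wide range was therefore favoured by the choice of pair. Neither gene passed the edgeR test (adjusted p = 0.772 for Itgal and 0.746 for Itga4). The ratio of Itgal to Itga4 in TPM was 4.28 in tumour 1, 9.72 in tumour 2 and 1.73 in tumour 3, a 5.62-fold range. This is a ratio within each library and does not depend on the scaling between libraries. It was 3.76, 8.54 and 1.52 with the length of the longest transcript.

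Icam1, the gene of the LFA-1 ligand CD54 (ENSMUSG00000037405.8, chromosome 9, 21015985 to 21028817), was nearly level. It had 141, 147 and 114 CPM in tumours 1, 2 and 3, a mean of 134 ± 17.7 CPM (1.29-fold, edgeR adjusted p = 0.997). Its transcripts were thus counted in the same sorted samples as those of its receptor. An antisense gene, Gm47079, overlaps 511 nt of its exons and had 0.266 to 0.396 CPM. Of the 9 other ligand genes listed in the files (Icam4 was not analysed here), 3 reached 1 CPM in every tumour, and their median was 1.21 CPM. Over all listed genes 28.6% reached 1 CPM in every tumour. Icam2, another LFA-1 ligand, had 20.0, 32.2 and 5.64 CPM, Vcam1, the ligand of VLA-4, had 2.05, 9.92 and 2.52 CPM, and Icam5 had 2.44, 2.66 and 1.86 CPM. The edgeR test could be run for 4 of them and called 0, with 2 at an unadjusted p below 0.05. Fn1, which encodes fibronectin, had 2.58, 0.799 and 0.265 CPM, and Vtn, which encodes vitronectin, had no count.

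Madcam1 encodes the ligand of the Itga4 and Itgb7 pair (ENSMUSG00000020310.9, chromosome 10, 79664559 to 79668537). It had 36.9, 103 and 30.7 CPM in tumours 1, 2 and 3, a mean of 56.8 ± 40 CPM, from 558, 1546 and 463 counts. Tumour 2 stood above the others, a 3.35-fold range. Without tumour 2 the mean was 33.8 CPM. Madcam1 was thus highest in the tumour in which Itga4 was lowest, while Itgb7 was at 170 CPM there.

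Markers of the cells that line the marginal sinus and of other stroma were at or near 0 where Madcam1 was counted. Of 10 stromal and sinus lining markers 0 reached 1 CPM in every tumour, and their summed level was 1.12, 0.732 and 0.398 CPM in tumours 1, 2 and 3. The stromal markers Ccl19 and Ccl21a were planned for this list but were not analysed here. Col3a1, Pdgfra, Pdpn, Dcn and Lum had no count in any tumour, which allows up to 3 counts for each. Macrophage genes were in part highest in tumour 2, as Madcam1 was: C1qa had 0.594, 6.79 and 1.26 CPM and Lyz2 had 7.73, 53.8 and 4.11 CPM (edgeR adjusted p = 0.0372). Over the 10 macrophage and monocyte markers, 3 reached 1 CPM in every tumour, and the sum was 160, 198 and 155 CPM, mostly from Cd68, which had 142, 118 and 144 CPM. The sum of plasma cell markers was also highest in tumour 2, at 139, 567 and 308 CPM over 4 genes. It came mostly from Xbp1, at 95.6, 151 and 62.0 CPM, and Jchain, at 36.3, 396 and 236 CPM (edgeR adjusted p = 0.0363). Sdc1, another gene of this list, had only 0.462, 0.466 and 0.332 CPM, and the last, Prdm1, is the floxed Blimp1 gene of the model. The part of these cells in the Madcam1 level was not tested.

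The 5 protein-coding genes listed on each side of Madcam1 did not share 1 order of tumours. Of the 7 neighbours that reached 1 CPM in any tumour, 4 were highest in tumour 2, as Madcam1 was. Another 2 were highest in tumour 3 and 1 in tumour 1. Mier2 had 32.6, 19.6 and 40.9 CPM, highest in tumour 3, and Cdc34 had 87, 166 and 157 CPM, near level in tumours 2 and 3. The next gene, Tpgs1, begins 832 nt beyond the end of Madcam1 on the same strand and had 14.9, 29.8 and 18.0 CPM. Bsg, which encodes basigin, had 262, 450 and 240 CPM. These neighbours were read after the values of Madcam1 were known.

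Pecam1 encodes CD31, an adhesion and inhibitory receptor of endothelium, platelets and some leukocytes (ENSMUSG00000020717.19, chromosome 11, 106654217 to 106750628, minus strand). It was the steadiest member, with 155, 130 and 151 CPM, a mean of 145 ± 13.2 CPM and a 1.19-fold range. Endothelial markers were low beside it. Of 12 such markers 1 reached 1 CPM in every tumour, Egfl7 with 2.25, 3.39 and 9.88 CPM, and the summed level of the list was 6.14, 4.99 and 11.5 CPM. Tie1 and Emcn had no count, Kdr and Tek had 1 count each in tumour 1 and none elsewhere, and Cdh5, the endothelial cadherin gene, had 1.65, 0.0666 and 0.332 CPM.

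**Figure D2:**
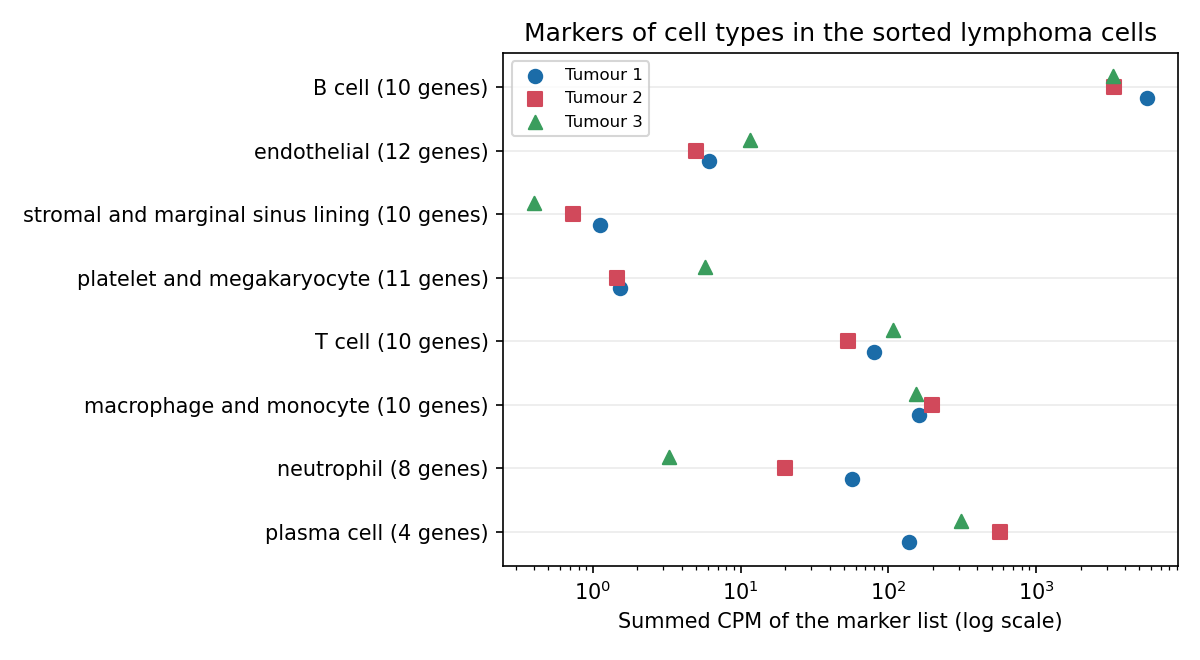
Summed CPM of marker lists of cell types that the sorted cells could hold, per tumour, on a log axis. B cell markers sum to 3306 CPM or more, while endothelial, stromal and platelet lists sum to 11.5 CPM or less in every tumour.

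Nid1 encodes nidogen 1, a glycoprotein that ties laminin to type IV collagen in basement membranes (ENSMUSG00000005397.8, chromosome 13, 13437551 to 13512269). It had 488, 116 and 66.7 CPM in tumours 1, 2 and 3, a mean of 224 ± 231 CPM, from 7393, 1739 and 1005 counts. Tumour 1 was far above both others, a 7.32-fold range. Without tumour 1 the mean was 91.2 CPM. The antisense gene Gm48682, which shares 143 nt with its exons, had at most 0.0663 CPM.

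The rest of the basement membrane list was low. Of 21 other genes 3 reached 1 CPM in every tumour, 4 had no count in any tumour, and the median was 0.0884 CPM. Lamc1, the laminin chain that nidogen binds, had 32.3, 17.3 and 27.9 CPM. Col4a1, a chain of type IV collagen, had 0, 0.0666 and 0 CPM, and the related gene Nid2 had 0.859, 0.865 and 0.398 CPM. The edgeR test could be run for 4 of the 21 and called 0, with 2 at an unadjusted p below 0.05. Of these, Hspg2, which encodes the proteoglycan perlecan, had 42.4, 1.93 and 9.82 CPM (edgeR adjusted p = 0.0536) and was highest in tumour 1, as Nid1 was. The other, the laminin chain gene Lama5, had 7, 1.66 and 12.1 CPM (edgeR adjusted p = 0.751) and was highest in tumour 3.

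The gene that follows Nid1 on chromosome 13 showed the same order of size between tumour 1 and the others. Lyst, which encodes a regulator of lysosome traffic (ENSMUSG00000019726.12, chromosome 13, 13590397 to 13778803), begins 78128 nt beyond the end of Nid1 on the same strand and had 445, 84.4 and 82.2 CPM. In tumour 1 Nid1 was 5.35 times and Lyst 5.34 times the mean of tumours 2 and 3. The adjusted p of Lyst in the edgeR test was 0.0536, so it was not called. The remaining 9 genes of the window, 5 on each side, did not share this size: Lgals8 was 2.26 times as high in tumour 1 as the mean of the others, and Gpr137b, next to Nid1 on its other side, 1.32 times. Edaradd, Gng4 and Tbce were highest in tumour 3, and Ggps1 was highest in tumour 2. These neighbours were read after the values of Nid1 were known.

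**Figure D3:**
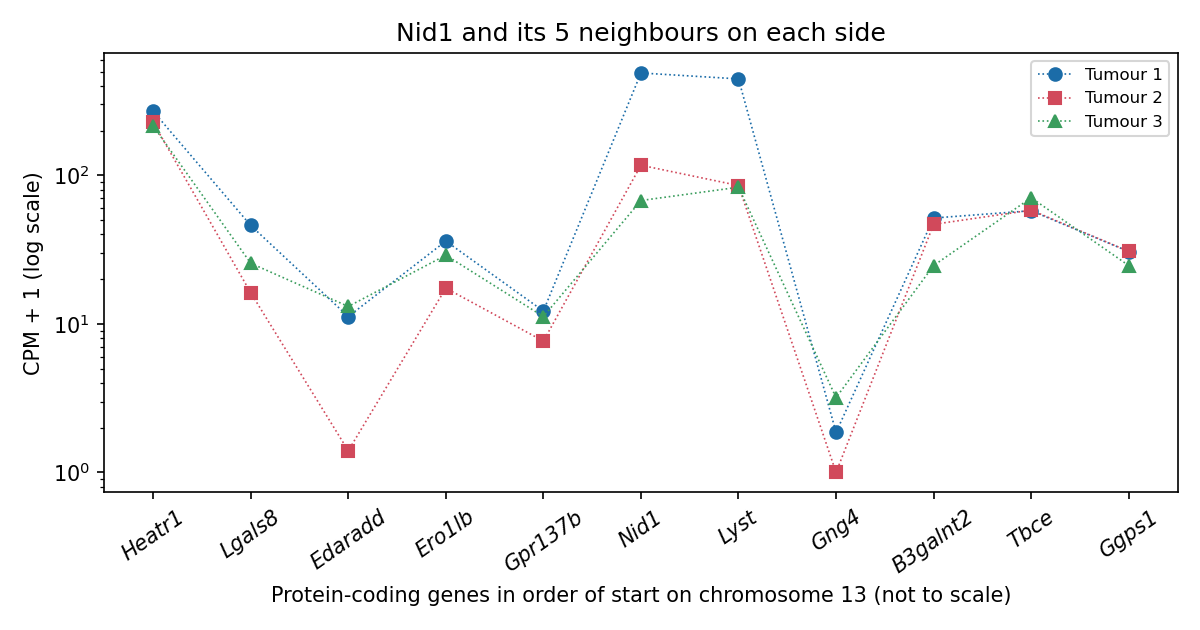
CPM + 1 on a log axis of Nid1 and the 5 protein-coding genes listed on each side, in order of their starts, with 1 symbol per tumour. Nid1 and Lyst separate tumour 1 (488 and 445 CPM) from tumours 2 and 3, and the other neighbours lie closer together or follow another order.

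Among the marker lists of cell types, the B cell, neutrophil and stromal sums were also highest in tumour 1. Stromal and sinus lining markers, of which 0 of 10 reached 1 CPM in every tumour, summed to 1.12, 0.732 and 0.398 CPM. B cell markers summed to 5623 CPM in tumour 1 against 3350 and 3306 CPM in tumours 2 and 3. Not every B cell gene followed: Blnk was near level at 515, 498 and 494 CPM, and Cd22 had 659, 307 and 671 CPM. Neutrophil markers, of which 0 of 8 reached 1 CPM in every tumour, summed to 57.1, 20.0 and 3.25 CPM, so tumours 2 and 3 also differed. Of these, Ngp had 24.5, 5.66 and 0.995 CPM (edgeR adjusted p = 0.12). Their part in the Nid1 level was not tested.

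Itgb3 encodes the beta chain of the platelet fibrinogen receptor and, with the Itgav product, of the vitronectin receptor (ENSMUSG00000020689.4, chromosome 11, 104608000 to 104670476). It was the lowest member, with 23.8, 12.7 and 42.9 CPM in tumours 1, 2 and 3, a mean of 26.4 ± 15.2 CPM, from 360, 191 and 646 counts. Tumour 3 was highest and tumour 2 lowest, a 3.37-fold range. Its partner Itgav had 27.4, 18.4 and 31.5 CPM, and the platelet partner Itga2b had 0.925, 0.799 and 2.12 CPM. Both followed the same order of tumours, as did Gp1ba, the highest platelet marker, with 0.528, 0.133 and 3.32 CPM. Of 11 platelet and megakaryocyte markers (Gp1bb was not analysed here) 0 reached 1 CPM in every tumour. Of these, 9 lay at or under 3 counts in each tumour, and the sum of the 11 was 1.52, 1.46 and 5.77 CPM. T cell markers summed to 80.5, 53.7 and 107 CPM, also highest in tumour 3, with Cd8b1 at 25.2, 18.0 and 56.1 CPM. Without Cd8b1 the sum was 55.3, 35.7 and 50.9 CPM, highest in tumour 1, and Lck had 31.8, 11.3 and 9.55 CPM. Of the 10 T cell markers 5 peaked in tumour 3. The part of these cells in the Itgb3 level was not tested.

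Ordered per length, the members ran from Itgb1 to Itgb3. Itgb1 had 317 ± 92.3 TPM, Itgal 210 ± 92.7 TPM and Itgb7 184 ± 19.9 TPM. Below them lay Madcam1 at 117 ± 76.7 TPM, Nid1 at 100 ± 108 TPM and Icam1 at 92.4 ± 13.3 TPM. Pecam1 had 70.5 ± 9.98 TPM, Itgb2 65.8 ± 21.1 TPM and Itga4 51.9 ± 24.9 TPM. Itgb3 came last at 13.5 ± 7.74 TPM, and its range over the tumours did not overlap that of Itga4, the next gene up. The ranges of every other pair of neighbours overlapped. Within tumours, Icam1 exceeded Pecam1 in 3 of 3, and each of the other overlapping pairs changed order in at least 1 tumour. Only Itgb1, Itgal, Itgb7 and Itgb3 kept their place when the length of the longest annotated transcript was used, under which Icam1 (125 ± 18.1 TPM) and Pecam1 (100 ± 14.6 TPM) moved above Madcam1 and Nid1. The transcripts present in these cells were not measured.

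**Figure D4:**
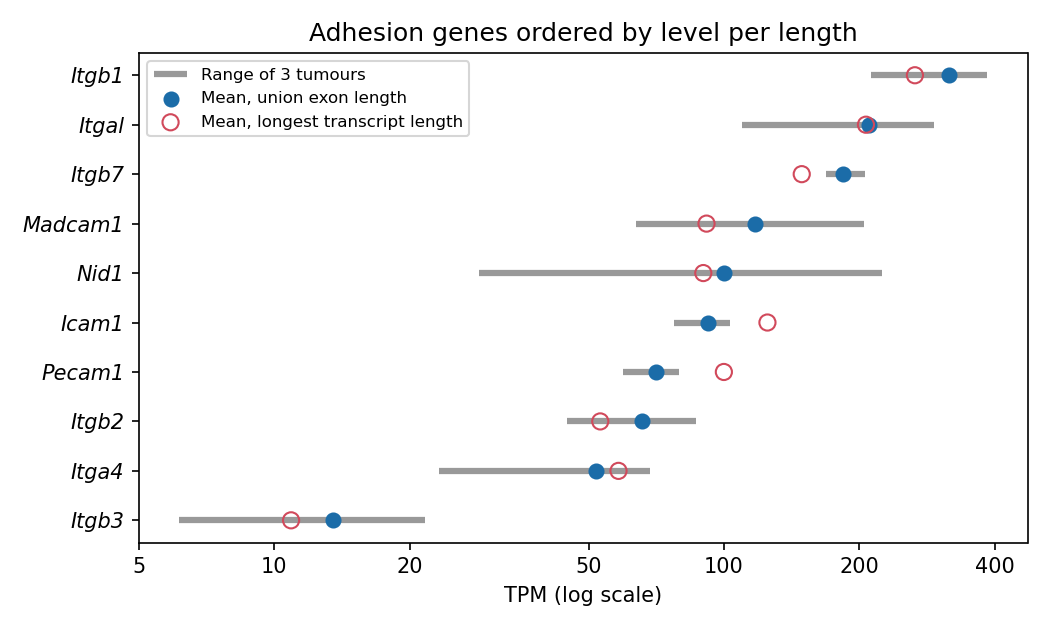
Level per length of each member in TPM on a log axis, ordered by mean, with bars for the range over 3 tumours and open circles for the mean with the longest transcript length. Itgb1 leads at 317 TPM and Itgb3 ends at 13.5 TPM, and the ranges of adjacent genes overlap for every pair except Itga4 and Itgb3.

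The remaining integrin genes were scarce. Of 20 other alpha and beta subunit genes 4 reached 1 CPM in every tumour (Itgav, Itga6, Itgae and Itgam), 1 had no count in any tumour (Itgb6), and the median was 0.861 CPM. Itga6, the laminin receptor chain, had 12.4, 6.32 and 15.7 CPM, and Itgae, the chain that pairs with the Itgb7 product to bind E-cadherin, had 4.36, 2 and 2.32 CPM. The edgeR test was run for 7 of the 20 and called 0, with 0 at an unadjusted p below 0.05.

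Genes that switch integrins on and tie them to actin were mostly well represented. In all 3 tumours 19 of 25 genes reached 1 CPM and 17 reached 10 CPM, and the median of the list was 97.2 CPM. Tln1, which encodes talin 1, had 451, 299 and 303 CPM, Fermt3, the kindlin of blood cells, 337, 309 and 301 CPM, and Rap1b 232, 271 and 281 CPM. The kindlins of other tissues were near absent, with no count for Fermt1 and at most 1 count in a tumour for Fermt2. Among the 19 tested genes the median range between tumours was 1.41-fold, the edgeR test called 0, and 1 had an unadjusted p below 0.05. Ilk, the integrin-linked kinase gene, had 0 to 0.265 CPM, but its exons overlap 2106 nt of the opposite-strand gene Taf10, so reads could have been lost or assigned there.

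Further adhesion molecules of lymphocytes reached 1 CPM throughout for 13 of 15 genes, and the median of the list was 68.1 CPM. Cd44, the hyaluronan receptor gene, had 254, 293 and 270 CPM, and Cd47 230, 202 and 192 CPM. The edgeR test called 0 of the 13 genes tested, with 3 at an unadjusted p below 0.05.

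**Figure D5:**
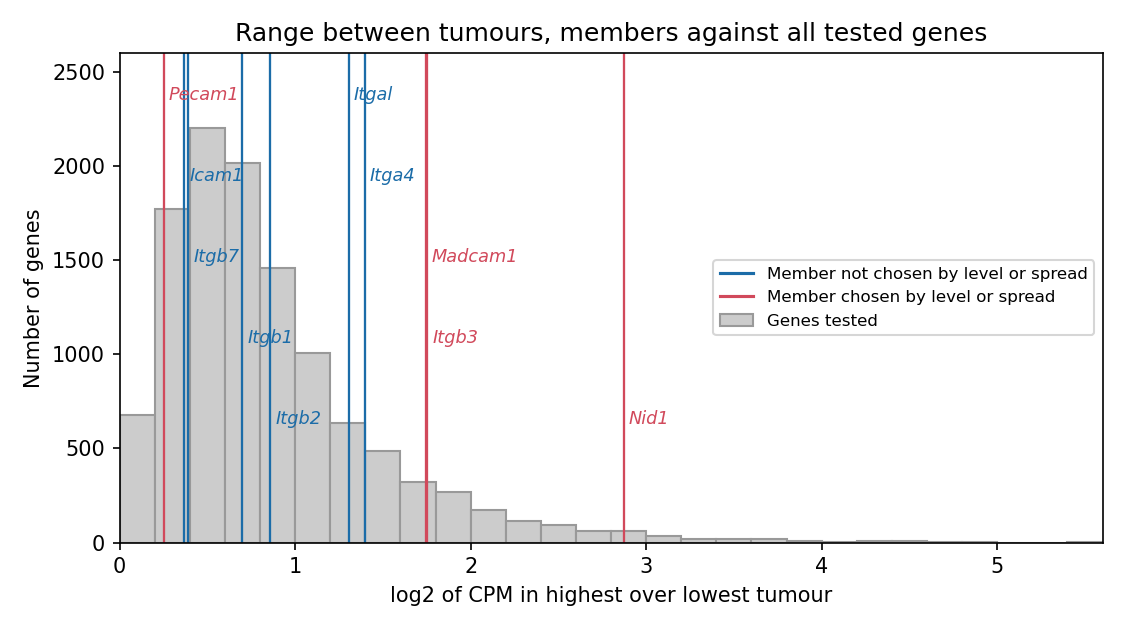
Distribution over 11478 tested genes of the log2 ratio of CPM in the highest to the lowest tumour, with lines for the members. Icam1, Itgb7 and Pecam1 lie at the narrow end, and Nid1, at 7.32-fold, lies in the upper tail. Nid1, Madcam1, Pecam1 and Itgb3 were chosen by their level or spread in these tumours, so their places carry no test.

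Genes with the profile nearest to Nid1, Madcam1 and Itgb3 were sought among 8466 other genes with a mean of at least 10 CPM, by Euclidean distance between log2(CPM + 1) profiles centred on their own mean over the 3 tumours. Nearest to Nid1 were Elk3 (22.5, 5.06 and 2.59 CPM, distance 0.10), Cpt1a (0.18) and 9930111J21Rik2 (0.20), and 11 genes lay within 0.5. Nearest to Madcam1 were the heavy chain gene Ighe (202, 535 and 177 CPM, distance 0.09), Praf2 (0.09) and Echdc2 (0.12), with 54 genes within 0.5. Nearest to Itgb3 were Rev1 (51.7, 27.6 and 91.9 CPM, distance 0.02), Fam117a (0.04) and Proser1 (0.05), with 262 genes within 0.5. With 3 tumours a profile has few degrees of freedom, and nearness in it is a description of these libraries.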

How the data were processed

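The authors deposited raw read counts per gene, 1 library per tumour, without normalization. Per the submitters' processing notes, the tools were FastQC, STAR 2.5.2b and featureCounts 1.6.0, with build mm10. Reads were single and 50 nt long, per the labels. Strand use, settings and annotation release: not given in the sources used here.

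Counts were divided by the library total to give CPM. Gene lengths and coordinates (1-based) came from GENCODE M21 (GRCm38, the assembly of mm10), which held 37536 of 37646 identifiers with the version ignored. TPM used union exon lengths. A count of 0 allows up to 3 counts, for counting error only.

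With 1 group there is no contrast. An intercept-only edgeR 4.0.16 quasi-likelihood model (R 4.3.3, TMM) was fitted to 11478 genes passing filterByExpr. Residual deviance over the trended prior was tested one-sided with F, adjusted by Benjamini-Hochberg over all genes, at 0.05, and the script was tested on simulated data. P-values measure the spread between these libraries. DESeq2 1.42.0 gave alternative size factors. Replicate numbers follow accession order and pair nothing.

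Members and lists were chosen with earlier results of these data known. The text names members, the 3 genes of highest mean CPM in each functional list (1 of them is not reported here), the marker genes that lead a list or had no count, the 3 nearest profiles, and genomic neighbours and a few partners chosen after their values were seen.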

Additional observations from a re-analysis of the deposited data

How the results depend on the processing

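Member levels moved by at most 1.71% under TMM or DESeq2 size factors. Leave-one-out means ran from 91.2 to 302 CPM for Nid1, 33.8 to 69.9 for Madcam1, 207 to 300 for Itga4 and 382 to 562 for Itgal, against 224, 56.8, 238 and 456 CPM over all 3 tumours. Without tumour 1 the Nid1 mean, and without tumour 2 the Madcam1 mean, thus fell by more than 1.5 times. The 4 differences between members kept their sign with the longest transcript, with a pseudocount of 0.1 and without division by length, and leaving out a tumour could not change it since all 3 shared it. Their size depended on length: without division by length Itga4 minus Itgb1 was -0.94 and Itgal minus Itgb2 2.70, against -2.69 and 1.6, and Itgb1 minus Itgb7 was 1.30 against 0.74. With the longest transcript length 4 of 10 members kept their place in the order per length. The number of genes called by the edgeR test was 16, and it was 15 with DESeq2 size factors, 0 with library totals alone, 0 with a mean count of at least 10 and 164 with no filter. Leaving out 1 tumour gave 0 to 11 calls: 0 without tumour 1, 0 without tumour 2 and 11 without tumour 3. The cause was not tested. The adjusted p of the 6 tested members stayed above 0.05 in all 42 alternatives, from 0.700 for Itga4 to 0.998. No paired analysis was possible because all tumours belong to 1 group.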
